A study of Mus musculus with 12 samples.

Results

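The genes described are 10 homeostatic microglia genes: *P2ry12*, *P2ry13*, *Gpr34*, *Cx3cr1*, *Csf1r*, *Tmem119*, *Siglech*, *Selplg*, *Sall1* and *Olfml3*. They were chosen by symbol from the 52459 genes listed in every count table, as genes that mark microglia of the healthy brain, and all 10 had enough reads to be tested in every comparison. The study measured RNA of cerebellum (Cb) and of forebrain with midbrain (F/M) in mice lacking *Tpp1*, a model of late infantile neuronal ceroid lipofuscinosis. Total RNA extracted with TRIzol was turned into stranded mRNA libraries, which were read from 1 end over 50 bases, and the counts of reads per gene were deposited. There were 12 libraries in 4 groups of 3, named F/M-N, F/M-T, Cb-N and Cb-T. The T groups came from homozygous *Tpp1*-/- mice, in which the gene is disrupted by targeting, and the N groups came from their wild-type brothers. All mice were males of 4 months, an age near the end of life of the mutants, so that females, earlier stages and heterozygotes are not represented. Each library stands for whole tissue and not for sorted microglia. The methods name 3 mice of each genotype for both areas, so Cb and F/M libraries of a genotype appear to share mice. Which libraries share a mouse is not stated, and the main tests took all 12 as independent.

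Microglia are the resident macrophages of the brain, and in the healthy adult they carry surface receptors with which they sense nucleotides, chemokines, lipids and growth factors released by neurons and other glia. Transforming growth factor beta and the transcription factor *Sall1* keep up this resting signature. In models of neurodegeneration, microglia near damaged cells commonly lose transcripts of the signature while they gain transcripts for phagocytosis and lipid handling.

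Depth was similar in the 4 groups. Total counts had a median of 21834686 in Cb-N, with 21428379 as the lowest library and 22542211 as the highest. Cb-T had a median of 23096463 (22805423 to 23921516). F/M-N ranged from 23245210 to 24458189 around a median of 23970265. F/M-T ranged from 22822119 to 24409595 around a median of 23336517. Levels are given as CPM, the counts scaled to library size with factors from the trimmed mean of M values (TMM), and 3 counts of a gene corresponded to 0.121 to 0.139 CPM, a floor that covers counting error only. A gene was called differentially expressed (DEG) when the quasi-likelihood test of edgeR gave a Benjamini-Hochberg false discovery rate (FDR) under 0.1 and the groups differed by at least 1.5-fold. A percentage of all tested genes that meet the same rule is given with each count of members. Adjusted p values of genes come from this edgeR test.

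*Tpp1* was read in every library as a check of the genotypes. Its level was 112, 114 and 113 CPM in the Cb-N libraries and 28.0, 31.1 and 30.1 CPM in the Cb-T libraries. In F/M-N it was 94.4, 88.7 and 87.8 CPM, and in F/M-T it was 23.9, 21.8 and 23.4 CPM. All T libraries lay below all N libraries in both areas, and reads of the disrupted gene were still present in every mutant library. *Tpp1* fell in both areas, with a log2 difference of T from N of -1.91 in Cb and -1.94 in F/M (adjusted p = 5.72e-35 and 2.74e-16).

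The first question was whether the resting signature differs between mutant and wild-type cerebellum. In Cb, 7 of the 10 genes were called higher in T, against 8.54% of all genes tested, and 0 were called lower, against 2.66% of all genes. All 10 had adjusted p below 0.1 in the higher direction at any fold, which held for 29.8% of all genes. The 3 Cb-T libraries lay above the 3 Cb-N libraries for all 10, and 27.7% of all genes did the same. The median log2 fold change of the 10 was 0.952, beside 0.0119 over all genes. Fewer cells and less RNA per cell cannot be told apart in these bulk samples, and the same holds for more cells and more RNA per cell. Hence each value below is a level in the tissue, not in a microglial cell.

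Among the receptors for nucleotides, lipids and chemokines, *Cx3cr1*, the receptor of the neuronal chemokine fractalkine, had the largest difference of the 10 genes. Its level was 14.8, 15.7 and 13.6 CPM in Cb-N against 41.4, 42.5 and 41.1 in Cb-T. Every mutant library was far above every control library. *Cx3cr1* rose 2.86-fold (log2 fold change 1.52, SE 0.0567, adjusted p = 1.74e-25). *Gpr34*, a receptor for lysophosphatidylserine, read 4.62, 3.21 and 3.76 CPM in Cb-N against 9.37, 9.67 and 10.3 in Cb-T. The Cb-N libraries were spread widely for their level, but none reached the mutant range, and *Gpr34* rose 2.55-fold (adjusted p = 1.22e-13). *P2ry13*, a receptor for ADP, was at 3.42, 3.90 and 3.29 CPM in Cb-N against 6.79, 6.85 and 7.42 CPM in Cb-T. The groups were well apart and the gene rose 2.00-fold (adjusted p = 1.73e-09). *P2ry12*, the ADP receptor that steers microglial processes towards injury, had 11.2, 10.96 and 12.4 CPM in Cb-N against 15.7, 16.4 and 16.5 in Cb-T. All mutant libraries were higher, with a 1.42-fold difference (log2 fold change 0.50, adjusted p = 2.52e-07) that stayed under the fold limit.

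*Csf1r*, the receptor tyrosine kinase on which microglia depend for survival, was the member with the highest CPM. Cb-N libraries had 39.0, 36.5 and 41.1 CPM, and Cb-T libraries had 89.2, 96.2 and 99.6 CPM. Even the lowest mutant library was far above the highest control library. *Csf1r* rose 2.47-fold (log2 fold change 1.30, SE 0.0433, adjusted p = 2.23e-27).

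Of the 3 other surface proteins, *Siglech*, a sialic acid-binding lectin, read 3.73, 3.81 and 3.71 CPM in Cb-N against 6.50, 6.97 and 7.38 in Cb-T. Its control libraries were nearly equal, all mutant libraries were higher, and *Siglech* rose 1.87-fold (adjusted p = 1.23e-08). *Selplg*, which encodes the P-selectin ligand, had 8.17, 7.39 and 8.54 CPM in Cb-N against 15.2, 14.3 and 13.5 in Cb-T. Again no library crossed, and *Selplg* rose 1.80-fold (adjusted p = 2.32e-11). *Tmem119*, a transmembrane protein widely used to tell microglia from other macrophages, had 5.504, 5.55 and 6.82 CPM in Cb-N against 6.88, 7.53 and 7.59 in Cb-T. The highest control and the lowest mutant library almost touched, and the 1.24-fold difference (log2 fold change 0.31, adjusted p = 0.0128), the smallest of the 10, was not called.

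*Sall1*, the zinc finger transcription factor of microglial identity, stood at 10.9, 10.4 and 10.6 CPM in Cb-N against 15.2, 15.8 and 16.3 in Cb-T. The groups were clearly apart, and the fold change of 1.49 (log2 fold change 0.58, adjusted p = 1.56e-08) fell just short of the limit. *Sall1* was called with upper-quartile factors (log2 fold change 0.60), with library totals only (0.62), without Cb-N replicate 1 (0.59) and without Cb-T replicate 1 (0.60). *Olfml3*, a secreted olfactomedin-like glycoprotein, had 9.10, 9.86 and 9.61 CPM in Cb-N against 21.6, 22.0 and 21.6 in Cb-T. Its replicates were tight in both groups, and *Olfml3* rose 2.30-fold (log2 fold change 1.20, adjusted p = 2.7e-18).

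**Figure D1:**
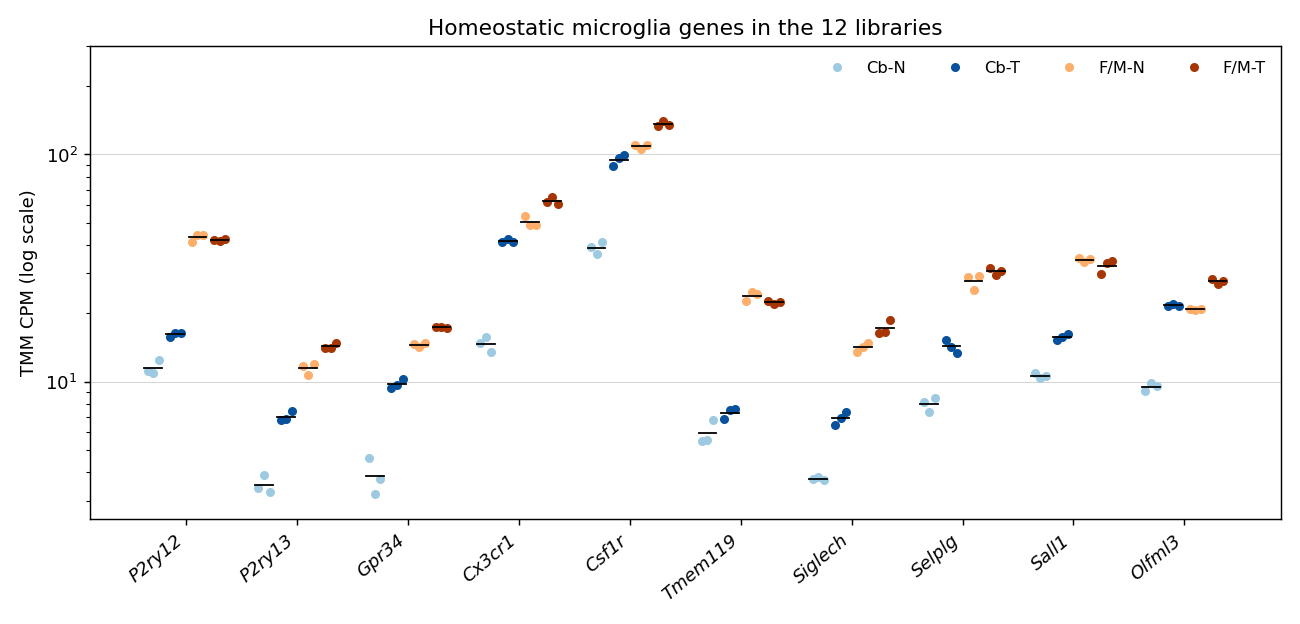
TMM CPM (log scale) of the 10 homeostatic microglia genes, with a point for each of the 12 libraries and a line at the mean of each group of 3. In Cb every T library lies above every N library, while in F/M the groups of *P2ry12*, *Tmem119* and *Sall1* overlap and *Csf1r* goes from a mean of 109 to 136 CPM.

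The same question was asked of forebrain with midbrain. In F/M, edgeR called 0 of the 10 genes, against 2.63% of all genes called higher and 0.858% called lower, and DESeq2 and limma-voom also called 0 each. Unadjusted p was below 0.05 for 7, and the same 7 had adjusted p below 0.1 with higher values in T, which held for 12.8% of all genes. For 7 genes the F/M-T libraries lay above all F/M-N libraries, beside 13.3% of all genes. The median log2 fold change of the 10 was 0.296, and 0.0078 over all genes. The limit on the fold change alone set the count to 0, since without it 7 were called.

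Among the receptors in F/M, *Cx3cr1* had 53.7, 48.7 and 48.8 CPM in F/M-N against 62.1, 64.7 and 60.6 in F/M-T. The mutant libraries were higher without overlap, by 1.27-fold (adjusted p = 1.89e-05). *P2ry13* had 11.7, 10.7 and 12.03 CPM in F/M-N against 14.2, 14.0 and 14.8 in F/M-T, a 1.27-fold difference (adjusted p = 0.00211). *Gpr34* had 14.7, 14.3 and 14.9 CPM in F/M-N against 17.4, 17.5 and 17.3 in F/M-T, a 1.22-fold difference (adjusted p = 0.0034). Both genes were higher in all mutant libraries by a margin small beside that in Cb. *P2ry12* had 41.4, 44.1 and 44.1 CPM in F/M-N against 41.9, 41.6 and 42.5 in F/M-T. These groups overlapped, and the log2 fold change of -0.01 (adjusted p = 0.927) turned positive with upper-quartile factors (0.0048) and with library totals only (0.0125). It also turned positive without F/M-N replicate 2 (0.0056), without F/M-N replicate 3 (0.01) and without F/M-T replicate 2 (0.0034), so that no direction is given for it.

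*Csf1r* in F/M read 110, 106 and 110 CPM in the controls and 134, 140 and 134 CPM in the mutants. All mutant libraries were above all controls, with a fold change of 1.28 (log2 fold change 0.36, adjusted p = 2.99e-07). *Siglech* read 13.5, 14.3 and 14.8 CPM in F/M-N against 16.5, 16.5 and 18.6 in F/M-T (1.24-fold, adjusted p = 0.00452). *Selplg* read 28.9, 25.4 and 29.2 CPM in F/M-N against 31.9, 29.5 and 30.7 in F/M-T (1.13-fold, adjusted p = 0.0479). *Siglech* was clearly apart, while the lowest *Selplg* mutant library was barely above the highest control. *Tmem119* read 22.7, 24.7 and 24.4 CPM in F/M-N against 22.8, 21.9 and 22.5 in F/M-T. The groups overlapped, and the log2 fold change was -0.06 (adjusted p = 0.481).

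*Sall1* in F/M was at 34.9, 33.7 and 34.6 CPM in the controls and 29.9, 33.4 and 34.1 CPM in the mutants. F/M-T replicate 1 was the lowest library of all 6, and the groups overlapped. The log2 fold change of *Sall1* was -0.05 (adjusted p = 0.561), and without F/M-T replicate 1 it was 0.0037. *Olfml3* was at 20.9, 20.6 and 20.97 CPM in F/M-N against 28.4, 27.0 and 27.8 in F/M-T. The mutants were higher without overlap, and its 1.36-fold difference (log2 fold change 0.45, adjusted p = 7.35e-06) was the largest among the 10 in F/M.

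**Figure D2:**
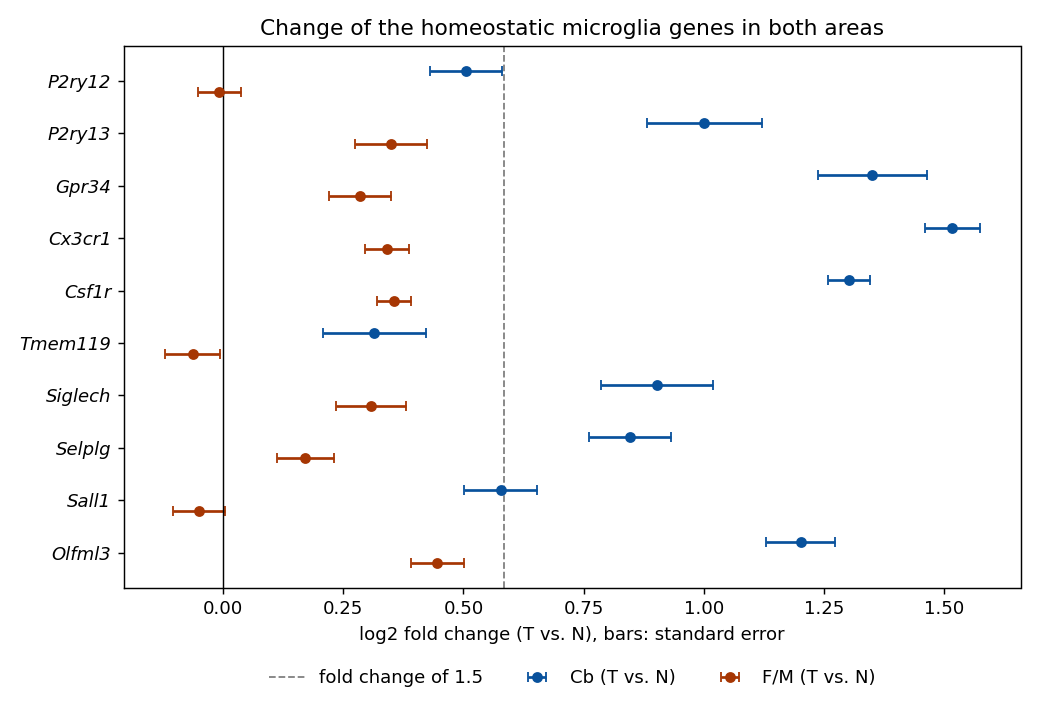
Log2 fold change (T vs. N) of each of the 10 genes in Cb and in F/M, as points with bars of 1 standard error from the fit of 6 libraries per area; the dashed line marks a fold change of 1.5. Values run from 0.31 (*Tmem119*) to 1.52 (*Cx3cr1*) in Cb and from -0.06 (*Tmem119*) to 0.45 (*Olfml3*) in F/M.

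Whether the change in Cb was larger than that in F/M was tested as the interaction of area and genotype over all 12 libraries. With libraries of equal genotype and replicate number taken as a mouse and fitted as a block, the count given next was the same. The difference was called for 8 of the 10 genes, all larger in Cb, against 6.41% of all genes in that direction, and 10 had adjusted p below 0.1 at any fold, against 17.4% of all genes. The median difference was 0.684 in log2 units, beside 0.027 over all genes. The largest were *Cx3cr1* (1.20, adjusted p = 1.59e-13), *Gpr34* (1.09, adjusted p = 1.29e-07) and *Csf1r* (0.97, adjusted p = 1.16e-13). *Olfml3* differed by 0.78, *Selplg* by 0.70, *P2ry13* by 0.67, *Sall1* by 0.65 and *Siglech* by 0.61. *P2ry12* (0.53) and *Tmem119* (0.40) were below the fold limit. The count varied with the libraries and the filter. Without Cb-T replicate 3 it was 5, with *P2ry13* (0.58), *Siglech* (0.52) and *Sall1* (0.57) lost. *Siglech* was also lost without F/M-N replicate 3 (0.58) and with a mean count of at least 50 (0.57), where the count was 7, and *P2ry12* was called without Cb-N replicate 3 (0.59). All 10 changes were larger in Cb.

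The baseline comparison asked how the signature differs between the areas of wild-type mice. All 10 genes were called, with F/M-N above Cb-N, against 22.8% of all genes, and all 10 were higher in every F/M-N library, as were 38.8% of all genes. The log2 difference ranged from 1.13 in *Olfml3* (2.19-fold) to 2.01 in *Tmem119* (4.03-fold), with a median of 1.79 beside -0.0092 over all genes. *P2ry12* differed by 1.91, *Gpr34* by 1.92, *Siglech* by 1.93, *Selplg* by 1.80, *Cx3cr1* by 1.78, *P2ry13* by 1.70, *Sall1* by 1.69 and *Csf1r* by 1.49. This comparison shares Cb-N with the test of Cb and F/M-N with the test of F/M, so the values are only set side by side. *Tmem119* had 2.01 at baseline, 0.31 in Cb (T vs. N) and -0.06 in F/M (T vs. N). *Cx3cr1* had 1.78, 1.52 and 0.34 in the same order. *Csf1r* had 1.49, 1.30 and 0.36, and *Olfml3* had 1.13, 1.20 and 0.45.

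Between the mutant areas, 8 of the 10 genes were called higher in F/M-T than in Cb-T, against 19.3% of all genes, and 10 were higher without overlap, against 35.7% of all genes. The median log2 difference was 1.055, beside -0.0126 over all genes. *Tmem119* differed most (3.09-fold), followed by *P2ry12* (2.63-fold) and *Siglech* (2.51-fold). *Csf1r* (1.45-fold) and *Olfml3* (1.29-fold) were not called, and *Cx3cr1* (1.52-fold, log2 difference 0.60) was not called without F/M-T replicate 2 (0.58), with upper-quartile factors (0.58), with library totals only (0.52) or in a single fit of all 12 libraries (0.58). Set against the wild-type F/M level, the mean of *Tmem119* was 24.9% in Cb-N and 30.6% in Cb-T. *P2ry12* went from 26.7% to 37.5% on this scale, *Cx3cr1* from 29.1% to 82.7% and *Csf1r* from 35.8% to 87.3%. *Olfml3*, at 45.7% in Cb-N, was at 104% in Cb-T, and its Cb-T libraries lay above all F/M-N libraries.

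Levels of different genes were compared as CPM per kilobase of exon, with exon lengths of the basic GENCODE annotation. *Csf1r* was the most abundant of the 10 in all 4 groups, with 7.96 ± 0.47 in Cb-N, 19.4 ± 1.1 in Cb-T, 22.3 ± 0.51 in F/M-N and 27.8 ± 0.78 in F/M-T (mean ± SD, n = 3). In Cb-N it was followed by *P2ry12* (4.72), *Selplg* (4.33), *Cx3cr1* (3.26), *Tmem119* (2.66), *Sall1* (2.02), *Gpr34* (1.85), *Olfml3* (1.74), *P2ry13* (1.4) and *Siglech* (1.14). The libraries of these neighbours overlapped for *P2ry12* and *Selplg*, for *Cx3cr1* and *Tmem119*, for *Sall1* and *Gpr34* and for *Gpr34* and *Olfml3*. In Cb-T the order was *Csf1r*, *Cx3cr1* (9.25), *Selplg* (7.72), *P2ry12* (6.63), *Gpr34* (4.68), *Olfml3* (3.97), *Tmem119* (3.27), *Sall1* (2.99), *P2ry13* (2.78) and *Siglech* (2.12). There *Tmem119* overlapped with *Sall1*, and *Sall1* with *P2ry13*. The place of *Selplg* depends on the length, which is 1855 bases in the basic and 4272 in the full annotation. With the full lengths, an alternative chosen after seeing the data, *Selplg* had 1.88 in Cb-N and 3.35 in Cb-T, at rank 6 in both, and *Csf1r* stayed first.

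In F/M-N, *Csf1r* per kilobase was followed by *P2ry12* (17.7), *Selplg* (15), *Cx3cr1* (11.2), *Tmem119* (10.7), *Gpr34* (6.99), *Sall1* (6.54), *P2ry13* (4.54), *Siglech* (4.33) and *Olfml3* (3.81). Only *Cx3cr1* with *Tmem119* and *P2ry13* with *Siglech* overlapped among these neighbours. With the basic lengths, all 10 genes held the same ranks in F/M-T, where the values were 17.2 for *P2ry12*, 16.5 for *Selplg*, 13.9 for *Cx3cr1*, 9.99 for *Tmem119*, 8.32 for *Gpr34*, 6.17 for *Sall1*, 5.67 for *P2ry13*, 5.24 for *Siglech* and 5.07 for *Olfml3*. *P2ry12* overlapped there with *Selplg*, and the last 4 genes overlapped from neighbour to neighbour. With the full lengths *Selplg* had 6.51 in F/M-N (rank 7) and 7.18 in F/M-T (rank 6), and *Sall1* went from rank 6 to rank 7.

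The 10 genes did not move in proportion. Their summed level was 110 ± 3.06 CPM in Cb-N, 236 ± 6.97 in Cb-T, 350 ± 6.26 in F/M-N and 403 ± 4.09 in F/M-T (SD, n = 3). *Csf1r* made up 35.2% of this sum in Cb-N and 40.3% in Cb-T, and 31.1% in F/M-N and 33.8% in F/M-T. *Cx3cr1* made up 13.3% in Cb-N and 17.7% in Cb-T. From Cb-N to Cb-T the share went from 10.4% to 6.87% for *P2ry12*, from 5.39% to 3.11% for *Tmem119* and from 9.65% to 6.68% for *Sall1*. From F/M-N to F/M-T it went from 12.4% to 10.4% for *P2ry12*, from 6.85% to 5.56% for *Tmem119* and from 9.84% to 8.06% for *Sall1*. Without overlap of the libraries, 2 shares were higher and 5 lower in Cb-T, and 4 were higher and 3 lower in F/M-T. *Siglech* (3.4% to 2.95%) and *Selplg* (7.27% to 6.09%) were also lower in Cb-T. *Olfml3* (5.96% to 6.89%), *P2ry13* (3.28% to 3.56%) and *Gpr34* (4.18% to 4.32%) were also higher in F/M-T. The counts of higher and lower shares have no counterpart over all genes. Shares of the same sum are bound to each other, so a lower share is not a lower level. In Cb all 10 levels were higher in T.

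A further comparison set the signature beside 15 genes that microglia and other macrophages express in any state, such as *Aif1*, *Itgam*, *Ptprc*, *Tyrobp* and the *C1q* genes. All 15 were called higher in Cb and 12 of 15 in F/M, with median log2 fold changes of 2.035 and 1.02. Their summed level was 144, 149 and 153 CPM in Cb-N, 645, 643 and 637 in Cb-T, 367, 371 and 380 in F/M-N and 715, 681 and 692 in F/M-T. *Itgam* had the smallest change of the 15, with a log2 fold change of 1.40 in Cb and 0.39 in F/M, and *Tyrobp* the largest, with 2.93 and 1.38. The paper places *Tyrobp* in a signature of disease-associated microglia, so expression in any state does not mean a constant level per cell. Of the 10 homeostatic genes, only *Cx3cr1* exceeded *Itgam* in Cb and only *Olfml3* in F/M.

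Taken as a percentage of the 15-gene sum, the 10 genes together came to 76.5, 71.9 and 74.1 in Cb-N and 35.4, 37.0 and 37.8 in Cb-T. In F/M-N they came to 96.1, 92.3 and 93.2, and in F/M-T to 55.7, 59.7 and 58.2. The T value was thus 0.496 of the N value in Cb and 0.617 in F/M, and no libraries overlapped. With 8 of the 15 genes as the denominator (*Aif1*, *Itgam*, *Spi1*, *Irf8*, *Ptprc*, *Laptm5*, *Cd53* and *Ly86*), it was 0.616 and 0.752. The value thus depends on the genes chosen for the denominator, whose sums were themselves higher in T in both areas. It is not a level per microglial cell. *Tmem119*, *P2ry12* and *Sall1* had the lowest ratios of T to N in Cb (0.286, 0.326 and 0.343) and also in F/M (0.501, 0.521 and 0.506). *Cx3cr1* (0.658), *Gpr34* (0.587) and *Csf1r* (0.567) had the highest in Cb, and *Olfml3* (0.713) in F/M. Since all genes of a library share the denominator, this order repeats that of the fold changes given above and adds nothing to it. All 10 ratios were lower in T without overlap in both areas, but so were those of 97.5% of all genes in Cb and 92.7% in F/M, and with the shorter denominator 96.4% and 86.8%. A count so near that of all genes is not a result about these 10. In wild-type mice 9 of the 10 ratios were above those of Cb-N in all F/M-N libraries, against 9.34% of all genes. With the shorter denominator it was 7, against 8.1% of all genes, as *P2ry13* (1.12 of its Cb-N ratio) and *Csf1r* (0.963, against 1.12 with the 15 genes) overlapped. *Olfml3* was lower at baseline, at 0.874 of its Cb-N ratio with the 15 genes.

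**Figure D3:**
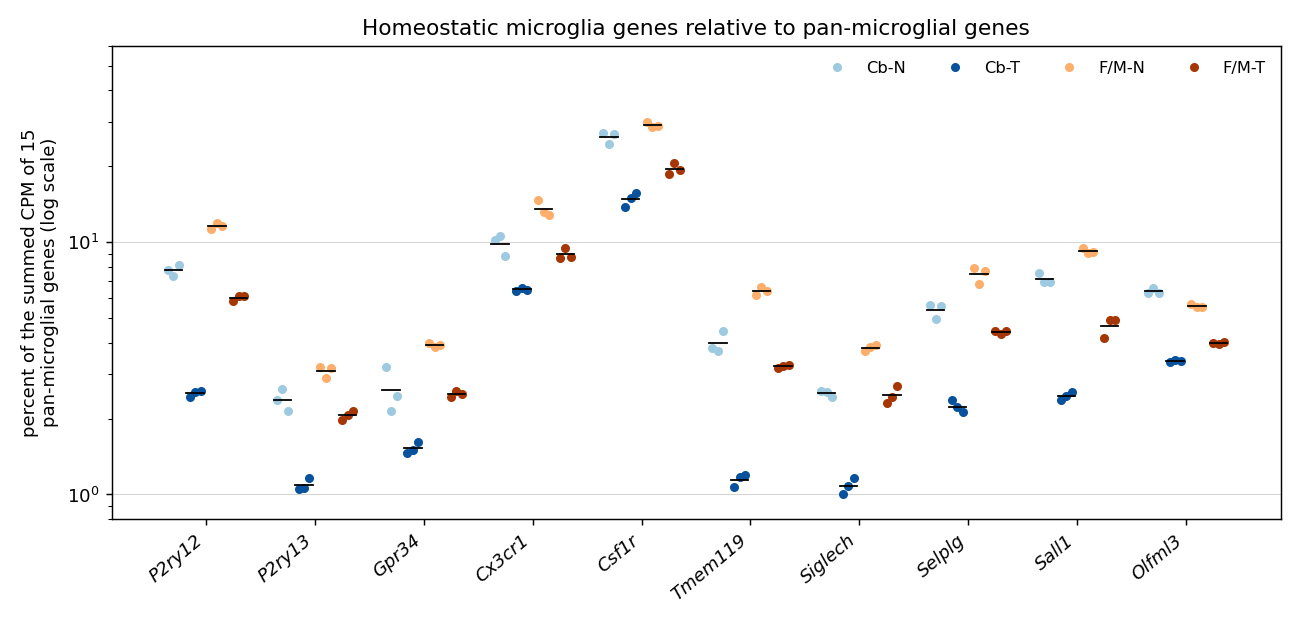
Level of each of the 10 genes as percent of the summed CPM of 15 pan-microglial genes (log scale), with a point per library and a line at the mean of 3. *Tmem119* had 3.81, 3.72 and 4.45 percent in Cb-N and 1.07, 1.17 and 1.19 percent in Cb-T, while *Cx3cr1* had 10.2, 10.5 and 8.85 percent in Cb-N and 6.42, 6.61 and 6.45 percent in Cb-T.

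Of 16 other genes of the resting signature, 7 were called higher in Cb and 2 in F/M, with medians of 0.514 and 0.195. *Fcrls*, an Fc receptor-like protein of microglia, had 3.68, 3.76 and 3.81 CPM in Cb-N against 35.6, 35.4 and 36.4 in Cb-T. In F/M it had 19.5, 16.4 and 19.2 CPM in N and 35.5, 37.5 and 35.6 CPM in T. Its mutant libraries were thus at nearly equal levels in the 2 areas, and it rose by a log2 fold change of 3.27 in Cb and 1.01 in F/M. *Abi3* (1.43), *Pros1* (0.94), *Vsir* (0.86) and *Cst3* (0.73) were called in Cb and not in F/M. The interaction was called for *Abi3* (1.19) and not for *Pros1* (0.58), *Vsir* (0.54) or *Cst3* (0.43). *Slc2a5* (0.09) and *Crybb1* (-0.24) were among the 9 not called in Cb. *Crybb1* passed the count filter there only through Cb-N. The lists of the resting signature and of pan-microglial genes are not fully separate. The F/M count was 1 without F/M-N replicate 1, without F/M-N replicate 2, without F/M-T replicate 3 and in a single fit of all 12 libraries.

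Of 18 ligands, receptors and transcription factors of microglial survival and identity, 11 were called higher in Cb and 4 in F/M, with medians of 0.629 and 0.218, and 0 lower, also by DESeq2 and limma-voom, though 1 in Cb (*Smad3*) and 3 in F/M (*Smad3*, *Itgav* and *Cx3cl1*) had lower values at unadjusted p below 0.05. In F/M, DESeq2 called 3 higher and limma-voom 4. Of the ligands of *Csf1r*, *Csf1* had 21.9, 21.3 and 24.0 CPM in Cb-N against 41.4, 43.4 and 41.5 in Cb-T, and *Il34* had 4.93, 4.96 and 6.17 CPM in Cb-N against 8.10, 8.54 and 7.71 in Cb-T. Both rose in Cb without overlap, with log2 fold changes of 0.92 for *Csf1* and 0.62 for *Il34*. In F/M, *Csf1* differed by 0.40 and *Il34* by -0.08, neither called, and the interaction was called for *Il34* (0.72) and not for *Csf1* (0.55). *Cx3cl1*, the ligand of *Cx3cr1*, had 78.5, 74.6 and 74.9 CPM in Cb-N against 95.4, 96.1 and 93.2 in Cb-T. In F/M it had 755, 731 and 742 CPM in N and 613, 611 and 610 CPM in T. The T libraries were higher in Cb and lower in F/M, without overlap and below the fold limit (0.33 and -0.25), and the interaction was called (0.60, adjusted p = 3.95e-13).

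In the same list, *Tgfb1*, the cytokine that maintains the signature, rose in both areas (0.67 in Cb and 0.65 in F/M), as did the transcription factors *Spi1* (1.83 and 0.76), *Irf8* (2.04 and 0.90) and *Runx1* (0.90 and 0.65). *Cebpa* (0.99), *Tgfbr1* (0.84), *Nrros* (0.64) and *Tgfbr2* (0.61) were called in Cb and not in F/M. The interaction was called for *Cebpa* (0.65) and *Tgfbr1* (0.64) and not for *Nrros* (0.34) or *Tgfbr2* (0.36). *Smad3* (-0.20), *Mef2a* (0.01), *Mef2c* (0.34), *Itgav* (0.16), *Itgb8* (0.37) and *Tgfb2* (0.37) were not called in Cb. *Spi1* and *Irf8* are also among the 15 pan-microglial genes, and *Csf1* among the disease-associated genes.

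Markers of other states and cell types also differed between the groups. Genes that did not pass the count filter in all libraries of each group were left out of counts given as passed in each group, a choice made after seeing the data. Of 20 genes of disease-associated microglia, 16 passed in each group, and 13 of these were called higher in Cb and 8 in F/M. The sum of all 20 was 2412, 2437 and 2547 CPM in Cb-N against 4357, 4375 and 4332 in Cb-T, and 2942, 2911 and 3189 CPM in F/M-N against 4077, 3919 and 4043 in F/M-T. *Apoe* was the most abundant, and *Cst7* was at 0 in a library of F/M-N. Of 10 genes of border macrophages, 5 passed in each Cb group, and edgeR and limma-voom called 2 of them higher and DESeq2 1. Of 6 that passed in each F/M group, edgeR, DESeq2 and limma-voom called 0, and 0 had unadjusted p below 0.05. The border macrophage sum, led by *Stab1*, was 21.4, 20.7 and 19.5 CPM in Cb-N, 29.6, 28.3 and 28.0 in Cb-T, 33.3, 32.9 and 34.1 in F/M-N and 34.7, 37.2 and 34.7 in F/M-T, and no gene of the list was at 0 in any library. Their part in the result for the 10 genes was not tested.

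Of 10 monocyte and neutrophil genes, 2 passed in each Cb group, of which edgeR, DESeq2 and limma-voom called 0, and 0 had unadjusted p below 0.05. In F/M 0 passed in each group, so no count of calls is given there. The sum of all 10, led by *S100a9* in Cb-N, was 4.71, 4.59 and 4.87 CPM in Cb-N, 4.52, 4.51 and 4.35 in Cb-T, 2.78, 1.89 and 2.46 in F/M-N and 2.497, 2.28 and 2.14 in F/M-T. *Ly6g* was at 0 in all F/M-T libraries. Of 13 genes of lymphocytes and plasmacytoid dendritic cells, 2 were tested in Cb, of which *Cox6a2* passed the filter only through Cb-T, so no count of calls is given there. In F/M edgeR, DESeq2 and limma-voom called 0 of 3, with 1 at unadjusted p below 0.05. This sum was 3.55, 3.72 and 3.85 CPM in Cb-N, 5.19, 5.40 and 5.06 in Cb-T, 17.1, 19.3 and 16.8 in F/M-N and 20.3, 18.6 and 19.0 in F/M-T. *Tcf7* led it in Cb and *Cd4* in F/M, and the T cell gene *Cd3e* had 0 to 0.219 CPM over the 12 libraries. Their part in the result was not tested. Plasmacytoid dendritic cells also express *Siglech*, and leukocytes at large express *Selplg*.

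Summed levels of markers of tissue position also differed between the groups. Of 19 Hox, serotonin, glycine and motor nucleus genes of hindbrain and spinal cord, 13 of the 15 tested in Cb and 1 of the 4 tested in F/M passed the count filter only through T. Of those that passed in each group, 1 of 2 was called higher in Cb (*Tph2*) and 2 of 3 in F/M (*Tph2* and *Slc6a5*). The sum of all 19 was 52.5, 51.0 and 48.7 CPM in Cb-N, 70.8, 68.2 and 68.3 in Cb-T, 7.99, 6.40 and 6.27 in F/M-N and 23.1, 23.2 and 22.9 in F/M-T. *Slc6a5* was the most abundant in Cb, *Chat* in F/M-N and *Tph2* in F/M-T, and *Hoxb5*, *Hoxb6*, *Hoxc4*, *Hoxc5*, *Hoxd3* and *Hoxd4* were at 0 in all Cb-N libraries. *Hoxb5* had 3.21, 2.34 and 2.07 CPM in Cb-T. *Slc6a5* had 50.1, 48.9 and 47.1 CPM in Cb-N and 48.5, 47.2 and 46.9 in Cb-T, so the higher sum in Cb-T comes from the other genes of the list. Of the olfactory bulb genes that passed in each group, 3 of 4 were called lower in F/M and 1 of 3 in Cb. The olfactory sum was 67.0, 66.0 and 69.9 CPM in Cb-N, 27.6, 29.9 and 31.1 in Cb-T, 56.3, 56.6 and 55.7 in F/M-N and 31.3, 29.5 and 30.1 in F/M-T, with *Eomes* the most abundant in Cb-N, *Cdhr1* in F/M-N and *Th* in both T groups. The lower sum in Cb-T rests on *Eomes*, the gene called lower in Cb, while *Th* and *Cdhr1* were higher there. *Eomes* had 53.3, 52.2 and 54.2 CPM in Cb-N against 3.34, 3.69 and 3.43 in F/M-N. The sum and the call in Cb are therefore not read as a level of olfactory bulb tissue. *S100a5* was at 0 in a library of F/M-T. The part of these markers in the result was not tested.

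Neuronal, oligodendrocyte, vascular and blood lists had few calls. Of 14 cerebellar neuron genes 0 were called by edgeR, DESeq2 or limma-voom in Cb, although 12 had lower values at unadjusted p below 0.05, with sums of 9526, 9602 and 9546 CPM in Cb-N against 8155, 8128 and 8067 in Cb-T, led by *Car8* in Cb-N and *Cbln3* in Cb-T, and of 13 tested in F/M 1 was called lower (*Barhl1*) by edgeR and limma-voom and 0 by DESeq2, with 3 higher and 3 lower at unadjusted p below 0.05. Of 8 forebrain neuron genes that passed in each Cb group edgeR, DESeq2 and limma-voom called 0, with 1 higher and 3 lower at unadjusted p below 0.05, and of 12 in F/M they called 0, with 1 higher and 5 lower. The forebrain sum, led by *Ppp1r1b*, was 993, 973 and 1023 CPM in F/M-N against 954, 936 and 944 in F/M-T, and 296, 295 and 307 CPM in Cb-N against 269, 261 and 254 in Cb-T. Of 10 oligodendrocyte genes 1 was called higher in Cb (*Opalin*, 0.71) and 0 in F/M by the same 3 tools, with unadjusted p below 0.05 and higher values for 10 in Cb and 2 in F/M and lower values for 1 in F/M (*Ermn*, -0.16). The oligodendrocyte sum, led by *Mbp*, was 4743, 4724 and 4831 CPM in Cb-N, 6250, 6188 and 6230 in Cb-T, 6174, 6067 and 6238 in F/M-N and 6203, 6030 and 6161 in F/M-T. Of 10 vascular genes 0 were called in either area by these tools, with 8 in Cb and 4 in F/M higher at unadjusted p below 0.05, and sums led by *Rgs5* of 475, 487 and 491 CPM in Cb-N, 544, 541 and 542 in Cb-T, 431, 431 and 434 in F/M-N and 454, 455 and 442 in F/M-T. Of 5 red blood cell genes 1 was called in Cb (*Alas2*, 0.64) and 0 in F/M by these tools, with 5 higher in each area at unadjusted p below 0.05, and sums led by *Hbb-bs* of 89.3, 89.8 and 99.0 CPM in Cb-N, 122, 132 and 125 in Cb-T, 75.1, 79.1 and 84.5 in F/M-N and 96.8, 85.9 and 91.2 in F/M-T. Their part in the result was not tested.

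The genes most like the mean profile of the 10 were sought among 17482 genes by the root mean square distance of centred log2 CPM over the 12 libraries. *Nnat* was nearest (0.0905, r = 0.993), followed by *Gm973* (0.108), *Sh3bgrl3* (0.109), *Cav2* (0.117), *Pex5l* (0.118), *Cd34* (0.121), *Nol3* (0.123), *Tmem130* (0.123), *Htr2c* (0.126) and *Cst3* (0.126). The mean profile of the 10 was 0.553 to 0.61 in F/M-N and -1.173 to -1.115 in Cb-N. A small distance thus largely follows the difference between the areas and does not mark a gene as microglial. Of the members themselves, *P2ry13* was closest to their mean (0.0869), and *Olfml3* (0.33) and *Tmem119* (0.341) were farthest from it. The closest pairs were *P2ry12* with *Tmem119* (0.114), *P2ry13* with *Siglech* (0.147), *Selplg* with *Siglech* (0.147) and *Cx3cr1* with *Csf1r* (0.148). The nearest gene outside the 10 was *Itgam* for *Cx3cr1* (0.1), *Adcy7* for *Csf1r* (0.0919), *Inpp5d* for *Gpr34* (0.104), *Cdh10* for *P2ry12* (0.0618) and *Nnat* for *P2ry13* (0.103). It was *Crip2* for *Tmem119* (0.0643), *Cav2* for *Sall1* (0.0708), *Resp18* for *Siglech* (0.106), *H2-DMa* for *Selplg* (0.0927) and *Vat1* for *Olfml3* (0.0974).

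Positions come from the GENCODE annotation of GRCm38. *P2ry13* (chr3:59207892-59210882) and *P2ry12* (chr3:59216272-59262871) lie 5.39 kb apart on the minus strand, both within *Med12l*, which runs on the plus strand. *Med12l* itself had 122, 119 and 110 CPM in Cb-N against 86.5, 87.9 and 84.0 in Cb-T, lower in T without overlap (log2 fold change -0.43), while both receptor genes were higher. *Gpr34* (chrX:13632089-13640858) lies within *Cask* on the opposite strand, and *Cask* differed by 0.13 in Cb. *Tmem119* (chr5:113793729-113800516) and *Selplg* (chr5:113818536-113832644) are 18 kb apart on the minus strand, and their changes in Cb were 0.31 and 0.85. *Cx3cr1* is at chr9:119901616-120069879, *Sall1* at chr8:89027235-89044162 and *Olfml3* at chr3:103722222-103738001. *Siglech* (chr7:55768178-55778925) shares a chromosome with *Tpp1*, 50 Mb away. Exons of *Csf1r* overlap those of *Hmgxb3* on the opposite strand over 873 bases (17.9% of its exon length), and *Hmgxb3* differed by -0.20 in Cb and -0.17 in F/M. As the strand setting of the counting is not given, reads of the 2 genes in this stretch cannot be told apart.

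Promoters of 6 of the 10 genes were read from the RefSeq table of GRCm38.p6, as 250 bases before to 50 bases after a gene start. *Gpr34*, *Selplg* and *Tmem119* had no entry, and that of *Csf1r* was not read. The letters GAGGAAG (bound by PU.1, the product of *Spi1*), the motif of interferon regulatory factors, CAGAC (SMAD proteins), GGGCGG (Sp factors) and the box TATAAA were searched on both strands. They occur in 13.6%, 3.44%, 49.6%, 35.7% and 13.6% of 32851 promoters of 300 bases. GAGGAAG was found in *P2ry13*, CAGAC in *P2ry12*, *Cx3cr1*, *Siglech* and 1 of 3 *Sall1* promoters, and GGGCGG in the other *Sall1* promoters and in *Olfml3*, where the last 2 of its 3 matches share 1 base. The motif of interferon regulatory factors and TATAAA were found in none of these windows. The promoters of the neighbours *P2ry13* (chr3:59210833-59211132, minus strand) and *P2ry12* (chr3:59262936-59263235, minus strand), with Cb changes of 1.00 and 0.50, and of *Cx3cr1* (chr9:120068247-120068546, minus strand), with the largest change, are printed 5′ to 3′. Capitals mark GAGGAAG in *P2ry13* and CAGAC, or its reverse complement GTCTG, in *P2ry12* and *Cx3cr1*. A match describes letters and not a bound site.
P2ry13: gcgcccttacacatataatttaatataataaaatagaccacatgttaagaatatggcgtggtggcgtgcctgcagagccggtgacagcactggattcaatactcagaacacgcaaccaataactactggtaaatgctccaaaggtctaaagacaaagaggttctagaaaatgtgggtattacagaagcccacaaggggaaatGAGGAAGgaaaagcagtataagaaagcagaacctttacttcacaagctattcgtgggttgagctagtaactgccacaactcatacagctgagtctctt
P2ry12: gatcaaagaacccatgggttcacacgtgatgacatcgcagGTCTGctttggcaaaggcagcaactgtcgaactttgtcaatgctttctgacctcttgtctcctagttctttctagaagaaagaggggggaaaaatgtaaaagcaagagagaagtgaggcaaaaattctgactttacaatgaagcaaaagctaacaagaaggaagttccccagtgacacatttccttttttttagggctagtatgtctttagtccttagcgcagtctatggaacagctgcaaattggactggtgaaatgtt
Cx3cr1: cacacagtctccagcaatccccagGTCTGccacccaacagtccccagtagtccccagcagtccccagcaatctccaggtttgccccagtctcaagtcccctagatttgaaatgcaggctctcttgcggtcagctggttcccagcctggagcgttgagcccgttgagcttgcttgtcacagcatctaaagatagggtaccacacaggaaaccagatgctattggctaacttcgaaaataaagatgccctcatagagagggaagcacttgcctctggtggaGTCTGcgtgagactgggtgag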

How the data were processed

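The counts per gene were made and deposited by the authors, who aligned reads to GRCm38 (mm10) with STAR (2.5.1b in the submitters' processing notes) and counted them with featureCounts 1.26.1. Strand setting, handling of multimapping reads and annotation release are not given in the sources used here. Everything after the counts was computed in R 4.3.3 with edgeR 4.0.16, limma 3.58.1 and DESeq2 1.42.0. For each comparison, the 6 libraries were filtered with filterByExpr (minimum count 10, minimum total 15), scaled by TMM and tested with glmQLFit and glmQLFTest, with Benjamini-Hochberg adjustment over all genes tested (16382 in Cb, 16665 in F/M, 16725 at baseline, 16943 between mutant areas). The interaction used all 12 libraries (17482 genes). CPM was scaled over the 12 libraries, and log2 CPM used a prior count of 2.

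The members and lists were chosen with earlier results of these data known. Named genes are the 10 members, genes of the 2 lists on the resting signature and its regulators, *Tpp1*, genes that overlap or hold a member, the genes nearest in profile, and from other lists the most abundant gene, the extremes and genes at 0. *Cd3e* and *Ermn* were chosen after their values were seen. Some genes of these lists count in the totals but are not reported here. The alternatives were DESeq2, limma-voom, the likelihood ratio test, RLE and upper-quartile factors, library totals only, no filter, a mean count of at least 50, a replicate block, a single fit of 12 libraries, FDR below 0.05, no fold limit, a shorter denominator and leaving out each library, and, chosen after seeing the data, exon lengths of the full annotation and list counts over genes with every library of each group over the CPM cut of the filter. On simulated counts with 200 genes changed 2-fold, the test recovered 182 in Cb with 2 false calls among 16197 genes, 187 in F/M with 2 among 16490, 184 at baseline with 7 among 16455, 189 between mutant areas with 3 among 16708, and 158 for the interaction with 6 among 17303.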

Additional observations from a re-analysis of the deposited data

Results flagged for a closer look

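For 8 of the 10 homeostatic genes, the change with genotype differed between Cb and F/M by the interaction test over 12 libraries, with more increase in Cb. The same call was made in that direction for 6.41% of all genes. The difference in log2 fold change was 1.1958 for *Cx3cr1*, 1.0858 for *Gpr34*, 0.966 for *Csf1r*, 0.7762 for *Olfml3*, 0.6956 for *Selplg*, 0.6714 for *P2ry13*, 0.6478 for *Sall1* and 0.6142 for *Siglech*. Without Cb-T replicate 3 the difference was no longer called for *P2ry13* (0.58), *Siglech* (0.52) and *Sall1* (0.57). *Siglech* was also not called without F/M-N replicate 3 (0.58) or with a mean count of at least 50 (0.57).

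Among other genes of the resting signature, the same test gave a difference between the areas of 2.2753 for *Fcrls* and 1.1868 for *Abi3*. Among ligands and regulators it gave 1.1574 for *Irf8*, 1.083 for *Spi1*, 0.7184 for *Il34*, 0.6463 for *Cebpa*, 0.6438 for *Tgfbr1* and 0.6011 for *Cx3cl1*. All of these were larger in Cb, and *Cx3cl1* was higher in T in Cb and lower in T in F/M.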

How the results depend on the processing

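Of the log2 fold changes of the 10 genes under all alternatives, 916 kept their direction and side of the limits, 19 passed the limits only under the alternative, 9 no longer passed and 6 changed sign. The sign changed for *P2ry12* in F/M with upper-quartile factors (0.0048), with library totals only (0.0125), without F/M-N replicate 2 (0.0056), without F/M-N replicate 3 (0.01) and without F/M-T replicate 2 (0.0034), and for *Sall1* in F/M without F/M-T replicate 1 (0.0037). Without single libraries these 2 values ran from -0.0378 to 0.01 and from -0.0877 to 0.0037. The cause was not tested. Leaving out libraries gave 7 to 8 called genes in Cb, 0 in F/M, 10 at baseline, 7 to 8 between the mutant areas and 5 to 9 for the interaction. Without a fold limit 10 were called in Cb, 7 in F/M, 10 between the mutant areas and 10 for the interaction. That alternative drops the limit itself, and the calls it adds make up most of the 19. By the methods the areas appear to share mice, but neither they nor the labels say that replicate numbers mark them. A replicate block gave 7, 0, 10, 8 and 8. The ratio to pan-microglial genes ranged over 0.488 to 0.505 (Cb) and 0.607 to 0.628 (F/M) without single libraries, and was 0.616 and 0.752 with the shorter denominator. Over all genes, DESeq2 called 283 higher and 82 lower in F/M, against 438 and 143. A mean count of at least 50 called 204 and 55 there, and 721 and 176 in Cb, against 1399 and 436, with fewer genes tested. With full exon lengths, an alternative chosen after seeing the data, *Selplg* in Cb-N had 1.88 CPM per kilobase, against 4.33. With 3 libraries a group, differences under 1.5-fold rest on narrow spreads. At 0.121 to 0.139 CPM for 3 counts, depth does not limit the 10 genes and limits lymphocyte and neutrophil markers.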
